A study of Mus musculus with 6 samples.

Results

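The HOX genes, the homeobox transcription factors that record the position of a cell along the body axis, were followed across 6 RNA-seq libraries of stromal cells from the mouse large intestine. The members were all genes in the deposited tables whose symbol is Hox, a cluster letter from a to d and a number. They came to 39 of the 24346 genes listed. A member was counted as expressed when it had an FPKM (fragments per kilobase of transcript, scaled to the mapped fragments of the library, a level corrected for transcript length) of at least 1 in 3 or more libraries. By this rule 12 of the 39 members were expressed.

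Mammalian HOX genes lie in 4 clusters, HOXA to HOXD, and genes at the same place in different clusters form a paralog group. Low group numbers lie at one end of each cluster and are used toward the head, and high numbers lie at the other end and are used toward the tail, an order called collinearity. In the embryo the posterior groups pattern the hindgut, limbs and genital tract, and fibroblasts of adult organs keep a HOX pattern that reflects where they came from. HOX proteins bind DNA together with TALE homeodomain partners of the PBX, MEIS and PKNOX families. Polycomb complexes keep unused HOX genes silent, and Trithorax complexes keep used ones active.

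Each library came from 1 mouse, 12 weeks old, given 1% dextran sulfate sodium, which injures the colonic epithelium. The 3 control mice (numbers 8, 9 and 43) carried Il10ra flox/flox, loxP-flanked alleles of the interleukin-10 receptor gene, and the 3 others (numbers 13, 23 and 25) carried Pdgfra cre with Il10ra flox/flox, so the floxed alleles and the injury were common to all. Cre was driven by Pdgfra, a fibroblast gene, whereas the sort selected on Podoplanin and against CD45, CD31, EpCAM and dead cells, so cells without cre could be among them. Whole colons were used, which leaves the region of the colon that each cell came from unknown. The comparison asked whether the HOX pattern differed between the genotypes or between single libraries.

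Between 11188 and 11358 genes per library reached 1 FPKM. Read totals were not used here, but the most frequent low values put 1 fragment per kilobase at roughly 0.113 to 0.131 FPKM. Il10ra, the targeted gene, was listed at 0 in 5 libraries and at 0.418 FPKM in control 43, so its level does not check the genotype labels. The fibroblast genes Col1a1 (704 to 1201 FPKM) and Dcn (8626 to 11261 FPKM) were abundant in all 6 libraries. Thy1, also a fibroblast gene, had only 3.69 to 10.4 FPKM. Ptprc, which encodes CD45, lay at 1.04 FPKM or less, Pecam1, which encodes CD31, at 0.856 or less, and Epcam at 1.11 or less. Other leukocyte and epithelial genes went both ways. Cd3e (0.0849 FPKM or less) and Muc2 (0.0906 or less) were near 0. The leukocyte genes Lyz2 (9.32 to 28.8 FPKM) and Tyrobp (1.11 to 18.5) and the epithelial gene Krt8 (0.0653 to 11.5) were not. RNA of other cells was thus present at levels like those of HOX genes. Library 23 of the Pdgfra-cre group stood apart in markers of other cells, with the neutrophil gene S100a8 at 94.7 FPKM against 0 to 9.42 in the other 5 libraries.

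The expressed HOX genes came mainly from HOXA and HOXD and from the posterior paralog groups. In HOXA 5 of 11 members were expressed, in HOXB 2 of 10, in HOXC 1 of 9 and in HOXD 4 of 9. Of the 8 members of paralog groups 1 to 3, 1 was expressed, of the 15 in groups 4 to 8, 4 were, and of the 16 in groups 9 to 13, 7 were. Every existing member was expressed in 2 groups, group 7 (Hoxa7 and Hoxb7) and group 10 (Hoxa10, Hoxc10 and Hoxd10). Groups 1, 3, 4, 6 and 12 had no expressed member. The count was 17 at a threshold of 0.5 FPKM, 9 at 2 FPKM and 9 when all 6 libraries had to pass, so its size depends on the threshold within these limits.

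**Figure D1:**
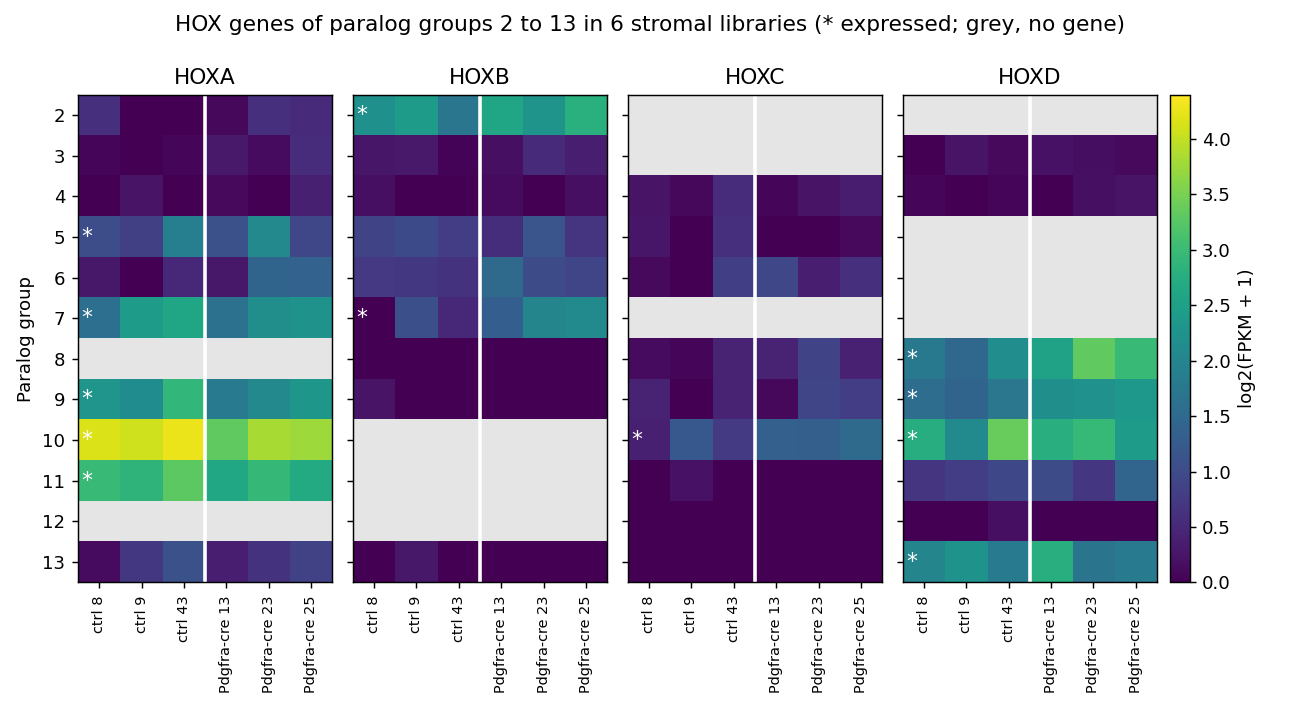
Heat map of the HOX genes of paralog groups 2 to 13, 1 panel per cluster, with paralog group on the vertical axis, the 6 libraries on the horizontal axis and colour for log2(FPKM + 1). Stars mark the 12 expressed members, grey marks groups with no gene in that cluster, and the brightest row is Hoxa10, at 9.02 to 18.4 FPKM.

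Hoxa10 had the highest level of the expressed members. Hoxa10, a group 10 factor known for its part in the hindlimb, the uterus and the lumbosacral region, had 17.0, 15.9 and 18.4 FPKM in the control libraries 8, 9 and 43, and 9.02, 13.2 and 12.5 FPKM in the Pdgfra-cre libraries 13, 23 and 25. All 3 controls lay above all 3 Pdgfra-cre libraries. Its mean over the 6 libraries, 14.3 FPKM, exceeded that of 59.0% of the 11429 genes tested, and no other member came above 37.8%. The next by mean level were Hoxa11 (6.52 FPKM), Hoxd10 (5.86 FPKM), Hoxd8 (4.73 FPKM), Hoxb2 (4.17 FPKM) and Hoxa9 (3.92 FPKM). The ranges of these 5 over the libraries overlapped, although Hoxa11 lay above Hoxa9 in each of the 6 libraries.

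The HOXA cluster lies on chromosome 6 (minus strand, mm10, GENCODE M21), and its used stretch ran from Hoxa5 to Hoxa11 with a gap at Hoxa6. Toward the anterior end Hoxa2 had 0 to 0.533 FPKM, Hoxa3 0 to 0.474 and Hoxa4 0 to 0.304. Hoxa5, which takes part in lung and gut patterning, stood at the edge of the rule with 1.06, 0.777 and 2.71 FPKM in controls and 1.13, 3.21 and 0.903 FPKM in Pdgfra-cre. Hoxa6 fell just outside it, with 0.211, 0 and 0.425 FPKM in controls and 0.212, 1.67 and 1.62 FPKM in Pdgfra-cre.

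Hoxa7, Hoxa9 and Hoxa11 had an FPKM above 2 in every library. Their ranges over the 6 libraries were 2.04 to 5.08, 2.54 to 6.495 and 5.25 to 8.77 FPKM. For each of these 3 genes the highest library was control 43. Hoxa13, the cluster's most posterior gene and a factor of the hindgut and the digits, was low, with 0.0943, 0.639 and 1.14 FPKM in controls and 0.285, 0.559 and 0.817 FPKM in Pdgfra-cre. The used stretch of HOXA thus ended between Hoxa11 and Hoxa13, with only control 43 past 1 FPKM for the latter.

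The antisense gene Hoxa11os, which shares 1418 bases of span with Hoxa11 on the other strand, had 7.55, 4.91 and 6.72 FPKM in controls and 8.17, 5.82 and 6.96 FPKM in Pdgfra-cre. Both genes were thus listed at like levels. Strand is not kept in these libraries, so reads in the shared stretch cannot be assigned to either gene from these tables.

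HOXB (chromosome 11, 96194316 to 96368256, plus strand) had 2 expressed members that are not neighbours. Hoxb2, an anterior gene known from hindbrain patterning, had 3.60, 4.31 and 2.30 FPKM in controls and 5.02, 3.84 and 5.94 FPKM in Pdgfra-cre. Its neighbours on either side were near 0: Hoxb1 was listed at 0 in all 6 libraries and Hoxb3 had 0.0340 to 0.454 FPKM. The whole 3488-base span of Hoxb2 lies within Hoxb3os, annotated on the other strand, which the deposited tables do not list by that name, so its level may include reads of that transcript.

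Farther along HOXB, Hoxb4 had 0 to 0.133 FPKM, and Hoxb5 and Hoxb6 stood just below the rule. Hoxb5 had 0.866, 0.978 and 0.749 FPKM in controls and 0.498, 1.22 and 0.596 FPKM in Pdgfra-cre, and Hoxb6 had 0.655, 0.634 and 0.566 FPKM against 1.88, 1.02 and 0.901 FPKM. Hoxb7, the second expressed member, had 0, 1.11 and 0.396 FPKM in controls and 1.48, 3.01 and 3.31 FPKM in Pdgfra-cre, with no overlap between the groups. Beyond it the cluster was almost silent. Hoxb8 was listed at 0 in all 6 libraries, Hoxb9 was above 0 only in control 8 (0.168 FPKM), and Hoxb13, the posterior gene of the cluster known from prostate and distal colon epithelium, only in control 9 (0.213 FPKM).

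HOXC (chromosome 15, 102921103 to 103036852, plus strand) was nearly unused. Its only expressed member was Hoxc10, a lumbosacral group 10 factor, with 0.306, 1.31 and 0.680 FPKM in controls and 1.54, 1.51 and 1.89 FPKM in Pdgfra-cre. The 5 genes from Hoxc4 to Hoxc9 lay between 0 and 0.91 FPKM. Beyond Hoxc10, Hoxc11 was above 0 only in control 9 (0.166 FPKM), and Hoxc12 and Hoxc13, which is known from hair and nail, were listed at 0 in all 6 libraries. Hotair, a noncoding RNA between Hoxc12 and Hoxc11, was above 0 only in control 9 as well (0.234 FPKM).

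HOXD (chromosome 2, 74668310 to 74765142, plus strand) was used from Hoxd8 to Hoxd10 and again at its posterior tip. Hoxd1, Hoxd3 and Hoxd4 at the anterior end reached at most 0.365, 0.175 and 0.171 FPKM. Hoxd8 (74704615 to 74707933) had 2.41, 1.76 and 3.44 FPKM in controls and 4.77, 9.04 and 6.94 FPKM in Pdgfra-cre. Hoxd9 (74697727 to 74700208) had 1.99, 1.68 and 2.34 FPKM in controls and 3.55, 3.65 and 4.09 FPKM in Pdgfra-cre. In both neighbours every Pdgfra-cre library lay above every control.

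Hoxd10, the next gene toward the posterior end, had 5.66, 3.23 and 9.36 FPKM in controls and 5.75, 6.72 and 4.41 FPKM in Pdgfra-cre, and there the groups overlapped fully. Hoxd11 lay just outside the rule, with 0.596, 0.748 and 0.935 FPKM in controls and 0.999, 0.621 and 1.71 FPKM in Pdgfra-cre. Hoxd12 was above 0 only in control 43 (0.136 FPKM). Hoxd13, which patterns the digits and the hindgut sphincter, came back above the rule in all libraries, with 3.03, 3.73 and 2.46 FPKM in controls and 5.77, 2.22 and 2.57 FPKM in Pdgfra-cre. It was the only expressed member of group 13, and the gap at Hoxd11 and Hoxd12 separated it from the other used HOXD genes.

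The promoters of Hoxd8, Hoxd9 and Hoxd10 are shown because the first 2 of these neighbours did not overlap between genotypes and the third did, together with that of Hoxa10, the member with the opposite difference. They are RefSeq sequences of GRCm38.p6, each 300 bases on the gene's strand, with CpG dinucleotides, the sites of DNA methylation, in capitals. The positions are chr2:74704365-74704664 (plus) for Hoxd8, chr2:74697513-74697812 (plus) for Hoxd9, chr2:74691641-74691940 (plus) for Hoxd10 and chr6:52240805-52241104 (minus) for the upstream of 2 Hoxa10 starts.
Hoxd8: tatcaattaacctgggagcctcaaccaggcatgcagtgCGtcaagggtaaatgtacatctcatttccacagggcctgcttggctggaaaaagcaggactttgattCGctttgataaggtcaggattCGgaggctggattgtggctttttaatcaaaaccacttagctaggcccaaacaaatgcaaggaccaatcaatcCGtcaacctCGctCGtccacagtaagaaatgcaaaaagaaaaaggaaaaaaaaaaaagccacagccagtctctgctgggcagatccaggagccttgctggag
Hoxd9: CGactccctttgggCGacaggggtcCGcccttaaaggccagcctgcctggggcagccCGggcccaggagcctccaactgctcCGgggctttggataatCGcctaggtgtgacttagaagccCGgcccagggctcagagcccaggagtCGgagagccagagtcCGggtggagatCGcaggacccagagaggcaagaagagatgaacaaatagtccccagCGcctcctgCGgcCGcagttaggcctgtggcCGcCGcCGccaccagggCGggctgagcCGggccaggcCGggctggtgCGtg
Hoxd10: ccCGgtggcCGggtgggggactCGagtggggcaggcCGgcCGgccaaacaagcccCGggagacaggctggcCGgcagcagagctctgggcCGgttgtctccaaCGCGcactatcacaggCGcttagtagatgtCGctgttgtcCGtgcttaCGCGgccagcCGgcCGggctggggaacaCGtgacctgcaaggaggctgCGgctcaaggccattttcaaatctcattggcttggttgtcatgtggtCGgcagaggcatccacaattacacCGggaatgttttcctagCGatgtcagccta
Hoxa10: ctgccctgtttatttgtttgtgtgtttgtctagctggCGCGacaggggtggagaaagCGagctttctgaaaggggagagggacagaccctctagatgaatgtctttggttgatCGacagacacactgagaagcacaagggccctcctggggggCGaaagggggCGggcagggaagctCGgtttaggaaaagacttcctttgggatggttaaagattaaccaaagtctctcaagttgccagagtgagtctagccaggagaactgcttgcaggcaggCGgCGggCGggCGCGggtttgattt
The Hoxd8 window holds 6 CpG dinucleotides, Hoxd9 20, Hoxd10 22 and the printed Hoxa10 window 12, so the pair with higher values in Pdgfra-cre did not share a CpG density. The window of the other Hoxa10 start, not printed, holds 21.

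RefSeq promoters were matched for 22 of the 39 members, 24 windows in all. The ratio of observed to expected CpG had a median of 0.675 in the 10 windows of expressed members and 0.625 in the 14 of the others, against 0.384 over all 32851 promoters. The ranges of these HOX windows, 0.280 to 1.02 and 0.257 to 0.970, overlapped nearly fully. Hoxd13, expressed, had 37 CpG dinucleotides, and Hoxa13, not expressed by the rule, had 45. TTTATG, a core that CDX and posterior HOX proteins bind, was found on either strand in 5 of the 24 windows (Hoxa7, Hoxb8, Hoxd3, Hoxd4 and 1 of 2 Hoxd11 starts), against 11.9% of all promoters. TGATTNAT, a joint PBX and HOX site, was found in 2 of the 24 (Hoxa2 and the other Hoxd11 start), against 3.22% of all promoters. Neither set of letters stood in the 4 windows printed above.

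No HOX gene passed the test between genotypes. The expressed members without overlap between the groups were Hoxd8, Hoxd9, Hoxb7 and Hoxc10, higher in Pdgfra-cre, and Hoxa10, lower. Genes were tested with limma on log2(FPKM + 1), with Benjamini-Hochberg adjustment over the 11429 genes that met the same expression rule, and all p values below are from that fit. Adjusted p fell below 0.05 for 0 of the 12 expressed members, against 0.0% of all genes. At an unadjusted p under 0.05 there were 4 of 12 members, against 11.0% of all genes. Of these, 3 were higher in Pdgfra-cre (5.47% of all genes) and 1 lower (5.49%). The groups did not overlap in 5 of 12 members, against 16.4% of all genes, 4 of them higher (8.07% of all genes) and 1 lower (8.29%). Hoxb7 and Hoxc10, 2 of these 5, would have met the expression rule through the 3 Pdgfra-cre libraries alone (1 control also reached 1 FPKM), which favours higher values there, so the counts were not read as a result about the HOX genes as a set. In sorted bulk samples, fewer cells of a type and less RNA per cell cannot be told apart. Of the 12 log2 fold changes 7 lay above 0, against 50.3% of all genes, with a median of 0.095 beside 0.0012 over all genes.

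**Figure D2:**
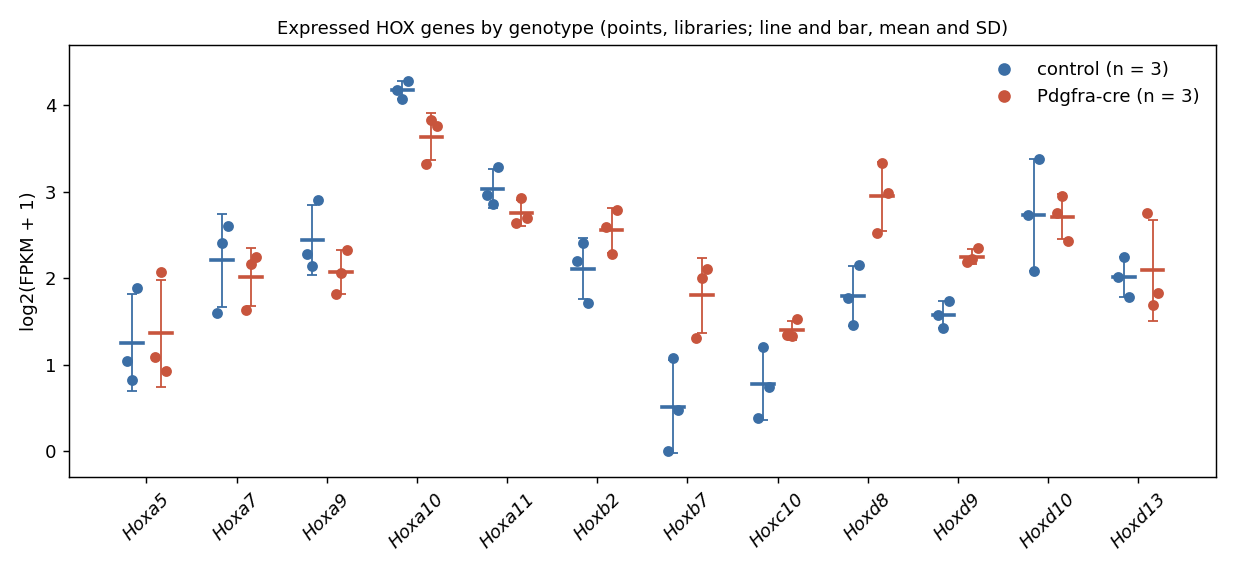
Level of each expressed HOX gene as log2(FPKM + 1) on the vertical axis, with 1 point per library, lines for group means and bars for the SD (n = 3 each). The Pdgfra-cre points lie above all control points for Hoxb7, Hoxc10, Hoxd8 and Hoxd9 and below them for Hoxa10.

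Hoxd8 had the lowest p of the members. Its mean was 2.54 ± 0.845 FPKM in controls and 6.91 ± 2.14 FPKM in Pdgfra-cre (SD, n = 3 each), a log2 fold change of 1.15 ± 0.28 (SE) with an unadjusted limma p of 0.0023 and an adjusted p of 0.191. By that p it ranked 137th among all genes. Without library 23, its highest value, the log2 fold change was 0.96. Roughly 37 to 219 fragments lay behind the Hoxd8 values, by the estimate of 1 fragment above and the annotated exon length. Hoxd3os1, annotated across the whole of Hoxd8 on the other strand, was listed at 0 in 4 libraries and at 0.712 and 0.341 FPKM in Pdgfra-cre libraries 13 and 25.

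Its neighbour Hoxd9 differed less, with 2.0 ± 0.328 FPKM in controls and 3.77 ± 0.287 FPKM in Pdgfra-cre. The log2 fold change of Hoxd9 was 0.67 ± 0.22 (SE; adjusted p = 0.283). Hoxb7 had 0.502 ± 0.562 and 2.60 ± 0.980 FPKM, with a log2 fold change of 1.29 ± 0.35 (SE; adjusted p = 0.228). Between 0 and about 45.4 fragments lay behind its values. Hoxc10 had 0.766 ± 0.509 and 1.65 ± 0.209 FPKM, with a log2 fold change of 0.62 ± 0.28 (SE; adjusted p = 0.475), on about 5 to 32 fragments.

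Hoxa10 was the only expressed member whose Pdgfra-cre libraries all lay below the controls. Its means were 17.1 ± 1.27 FPKM in controls and 11.6 ± 2.26 FPKM in Pdgfra-cre (SD, n = 3 each), a log2 fold change of -0.54 ± 0.18 (SE; adjusted p = 0.299). About 252 to 506 fragments lay behind these values, the most of any member. Without Pdgfra-cre library 13, the lowest, the log2 fold change was -0.38. Of the other tested HOXA members, Hoxa7 (-0.19), Hoxa9 (-0.37) and Hoxa11 (-0.28) had log2 fold changes below 0 and Hoxa5 (0.11) above, all with groups that overlapped. Hoxa7 turned to 0.0090 without control 43 and to 0.0010 without Pdgfra-cre library 13.

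The remaining expressed members showed no separation. Hoxb2 had a log2 fold change of 0.44 (unadjusted 95% interval -0.13 to 1.02), Hoxa5 0.11 (-0.77 to 0.99), Hoxd13 0.080 (-0.62 to 0.78) and Hoxd10 -0.017 (-0.74 to 0.70). Each of these intervals reaches at least 0.70 above 0, so a difference of that size was not resolved. Folds on this scale understate changes at low FPKM. With a pseudocount of 0.1 the log2 fold changes of Hoxd8, Hoxd9, Hoxb7 and Hoxc10 were 1.41, 0.89, 2.71 and 1.18, and with a pseudocount of 5 they were 0.65, 0.32, 0.46 and 0.21. The adjusted p of each stayed above 0.05 under both.

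**Figure D3:**
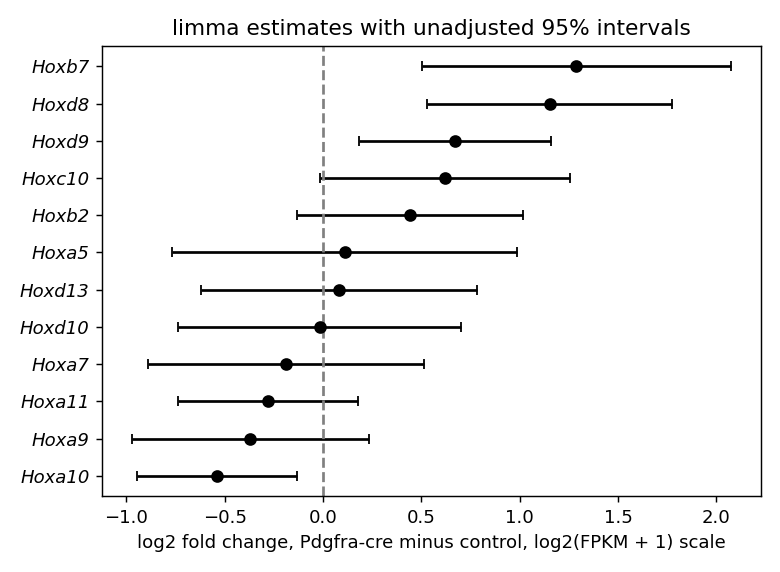
Log2 fold change of each tested HOX gene (Pdgfra-cre minus control, on the log2(FPKM + 1) scale) on the horizontal axis, with points for limma estimates and bars for unadjusted 95% intervals. Intervals of Hoxb7, Hoxd8 and Hoxd9 lie above 0 and that of Hoxa10 below, but 0 of 12 members passed the adjusted threshold.

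The make-up of the HOX signal separated the genotypes although its total did not. Summed over the 39 members, the controls had 52.3, 51.9 and 69.8 FPKM and the Pdgfra-cre libraries 55.0, 68.4 and 66.1 FPKM, with overlapping groups. The share of that sum from HOXA was 60.7, 60.6 and 62.8% in controls and 40.0, 47.7 and 46.6% in Pdgfra-cre. HOXD gave 26.2, 21.9 and 26.9% in controls and 38.2, 32.9 and 30.8% in Pdgfra-cre. Both shares, and that of HOXC (2.31 to 4.45% and 5.30 to 5.77%), did not overlap between the genotypes, and that of HOXB did (5.79 to 14.4% and 13.9 to 16.9%). Shares are within a library, so scaling between libraries cannot change them, but a higher share of 1 cluster lowers that of the others. Sums and shares over the members were described and not tested.

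In FPKM the sum of HOXA overlapped between genotypes (31.4 to 43.8 in controls, 22.0 to 32.7 in Pdgfra-cre), as did that of HOXC (1.21 to 3.11 and 2.92 to 3.82). The sums of HOXB (4.04 to 7.47 and 9.11 to 11.2) and HOXD (11.3 to 18.8 and 20.3 to 22.5) did not. In HOXB only Hoxb6 and Hoxb7 were higher without overlap, and in HOXD only Hoxd8 and Hoxd9. Hoxd8 and Hoxd9 made up 30.4 to 32.1% of the HOXD sum in controls and 39.6 to 56.4% in Pdgfra-cre. The other HOXD members overlapped, so the HOXD sum does not show a shift of the whole cluster. By paralog group the posterior share, groups 9 to 13, was 76.1, 71.8 and 73.2% in controls and 63.2, 57.3 and 57.8% in Pdgfra-cre. The central share, groups 4 to 8, was 15.2, 19.1 and 22.2% against 24.6, 35.2 and 30.004%, and the anterior share, groups 1 to 3, overlapped (4.58 to 9.09% and 7.48 to 12.2%). The sums of groups 2, 3, 6 and 8 were higher in Pdgfra-cre without overlap, and those of the other 9 groups overlapped. Group 8 was mainly Hoxd8, since Hoxb8 was listed at 0 and Hoxc8 reached at most 0.860 FPKM. Group 2 separated narrowly, at 2.30 to 4.31 FPKM in controls and 4.37 to 6.39 FPKM in Pdgfra-cre, and its expressed member Hoxb2 overlapped. Group 6, from Hoxa6, Hoxb6 and Hoxc6, summed to 0.941, 0.634 and 1.75 FPKM in controls and 3.00, 2.98 and 3.03 FPKM in Pdgfra-cre, although none of its members met the rule. Group 3, also without an expressed member, summed to 0.157 to 0.403 FPKM and 0.517 to 0.841 FPKM. Each member of groups 3 and 6 had at most about 31.6 fragments. No background over other genes was computed for these sums.

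**Figure D4:**
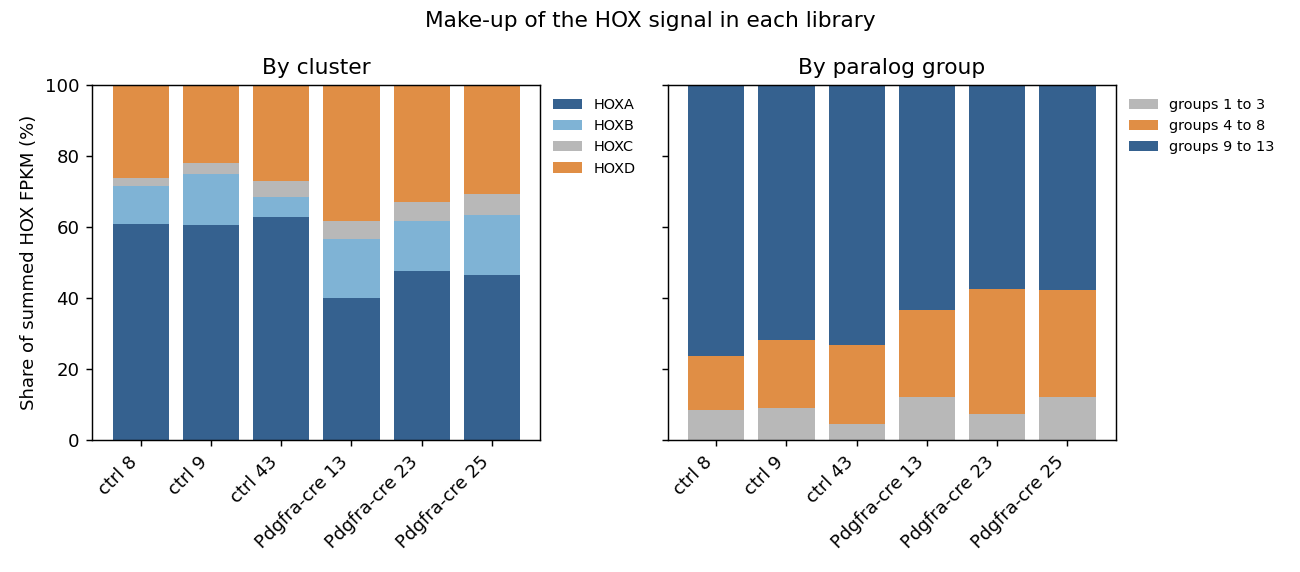
Stacked bars of the percent of summed HOX FPKM in each of the 6 libraries, by cluster on the left and by paralog group on the right. The 3 controls hold 60.6 to 62.8% in HOXA and the 3 Pdgfra-cre libraries 40.0 to 47.7%.

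Hoxa10 alone made up 32.5, 30.6 and 26.4% of the summed HOX FPKM in controls and 16.4, 19.4 and 18.9% in Pdgfra-cre. With Hoxa10 and Hoxd8 left out, the posterior share of the rest was 62.5 to 69.4% in controls and 55.1 to 62.5% in Pdgfra-cre, and 1 control and 1 Pdgfra-cre library had nearly the same share. With Hoxd9 left out as well, the posterior share was 60.5 to 67.4% in controls and 50.8 to 59.0% in Pdgfra-cre. The HOXA share was then 47.8 to 55.8% and 34.4 to 45.7%, and neither share overlapped. Hoxd9 is a posterior gene with higher values in every Pdgfra-cre library, so leaving it out lowers the posterior share more there. The renewed gap in the posterior share was therefore not read as a difference in the other members. The genes left out were picked for their differences in these same data, and Hoxa5, Hoxa7, Hoxa9 and Hoxa11 each overlapped between genotypes. The gap in the HOXA share was therefore not read as a difference in the other HOXA members either. The ratio of Hoxd8 to Hoxa10, chosen after the values were seen, was 0.142, 0.111 and 0.187 in controls and 0.528, 0.682 and 0.555 in Pdgfra-cre.

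More members crossed 1 FPKM in the Pdgfra-cre libraries, 14, 15 and 13, than in controls, 10, 11 and 11. The same 9 members reached 1 FPKM in all 6 libraries. The difference lay in low members such as Hoxa6, Hoxb6, Hoxb7 and Hoxc10, which had at most about 45.4 fragments, so it depends on the threshold. Over all genes the number at that level did not follow the genotype (11343, 11291 and 11289 in controls, 11297, 11188 and 11358 in Pdgfra-cre). Across the 39 members, Pearson's r on the log2 scale lay between 0.878 and 0.954 for the 15 pairs of libraries, and each library's mean with the other 5 between 0.907 and 0.913. Spearman's rho lay between 0.689 and 0.940, with means per library from 0.769 in control 9 to 0.871 in Pdgfra-cre library 23. These values are across genes that share low values near 0, and are a description only. Library 23, apart in immune markers, was at 0.907 and had the highest Hoxa5 and Hoxd8 values of the 6. The expressed HOX genes had a median coefficient of variation over the 6 libraries of 35.4%, against 20.3% over all tested genes and 24.8% over the 7585 with a mean of 1 to 20 FPKM. This spread pools both genotypes. Apart from Hoxa10 the expressed members had means of at most 6.52 FPKM, so neither background matches their level. The values were not read as a larger spread of HOX genes than of genes at like levels.

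HOX partners of the TALE family overlapped between genotypes. Of 9 listed, 7 were tested, 0 passed the adjusted threshold, 5 had a log2 fold change above 0 and 2 below, with a median of 0.089. Meis1 had 30.1 to 38.4 FPKM, Meis3 17.0 to 22.0 FPKM and Pknox2 13.02 to 17.0 FPKM over the 6 libraries. Pbx2 and Pbx4 did not meet the rule.

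Polycomb genes, whose products silence HOX genes, and Trithorax genes, whose products keep them active, gave log2 fold changes on both sides of 0. Of 20 tested Polycomb genes 13 lay above 0 and 7 below (median log2 fold change 0.081), and of 9 tested Trithorax and H3K27 demethylase genes 4 lay above and 5 below (median -0.086), with 0 past the adjusted threshold in either list. Rbbp7, a histone-binding subunit, led the Polycomb list at 150 to 189 FPKM, and Dpy30, a subunit of H3K4 methyltransferases, the other at 45.9 to 52.8 FPKM. The exception by unadjusted p was Phc2, a Polycomb complex 1 subunit, with 7.94, 4.80 and 6.49 FPKM in controls and 7.36, 26.15 and 21.3 FPKM in Pdgfra-cre (log2 fold change 1.24 ± 0.40 (SE), adjusted p = 0.28), where library 13 stayed among the controls. Of the upstream regulators, Cdx2 was listed at 0 except in Pdgfra-cre library 25 (0.208 FPKM), Cdx1 reached at most 0.602 FPKM and Cdx4 was listed at 0 throughout. Egr2, a hindbrain regulator, had 83.9, 89.1 and 94.6 FPKM in controls and 76.1, 54.9 and 60.6 FPKM in Pdgfra-cre (log2 fold change -0.49, adjusted p = 0.243), and was lower in all 3 Pdgfra-cre libraries.

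The tested noncoding and flanking genes of the clusters overlapped between genotypes. Of 27 listed noncoding and flanking genes found in the tables, 10 were tested, 6 above and 4 below 0 with a median log2 fold change of 0.038. Mtx2, which flanks HOXD, had 29.5 to 34.9 FPKM in controls and 28.1 to 35.1 FPKM in Pdgfra-cre, and Evx2, next to Hoxd13, was listed at 0 throughout. The microRNA genes of the clusters (Mir10a, Mir10b, Mir196a-1, Mir196a-2, Mir196b and Mir615) were listed at 0, in libraries made from full-length cDNA.

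None of the other transcription factors of position in the gut mesenchyme passed the adjusted threshold. Of 24 tested, 9 had a log2 fold change above 0 (50.3% of all genes) and 15 below, with a median of -0.17 beside 0.0012 over all genes. The groups did not overlap in 10 (16.4% of all genes), of which 9 were lower in Pdgfra-cre (8.29% of all genes). Tbx3 had 6.57, 6.15 and 8.76 FPKM in controls and 1.90, 1.03 and 3.27 FPKM in Pdgfra-cre (log2 fold change -1.47 ± 0.30 (SE), adjusted p = 0.156). Tcf21 (287 to 492 FPKM against 211 to 226), Pitx1 (24.6 to 31.1 against 15.8 to 16.9) and Isl1 (15.01 to 22.0 against 8.19 to 10.02) were also lower in all 3 Pdgfra-cre libraries. Twist1, with 2.59 to 3.31 FPKM in controls and 5.46 to 9.20 FPKM in Pdgfra-cre, was the only one of the 24 higher without overlap.

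Sums of smooth muscle and mesothelial markers separated by genotype beside the HOX differences. Single members of these lists overlapped, Synm among the former and Wt1 and Krt19 among the latter. The 5 smooth muscle markers summed to 215 to 265 FPKM in controls and 51.4 to 143 FPKM in Pdgfra-cre, with the muscle myosin gene Myh11 at 51.7 to 54.4 FPKM against 6.97 to 33.0. The 5 mesothelial markers summed to 2.49 to 10.1 FPKM and 11.6 to 62.0 FPKM, with Msln at 0 to 0.804 FPKM in controls and 8.81, 28.1 and 4.22 FPKM in Pdgfra-cre libraries 13, 23 and 25. Pericyte markers summed to 29.7 to 43.7 and 21.5 to 26.7 FPKM, through Kcnj8 (24.4 to 37.8 and 15.8 to 21.5 FPKM), while Rgs5, Notch3 and Cspg4 overlapped. Neutrophil marker sums overlapped narrowly, at 1.03 to 11.004 FPKM in controls and 10.8 to 179 FPKM in Pdgfra-cre, the highest in library 23. S100a8 (0 to 6.84 and 6.90 to 94.7 FPKM) and S100a9 (0 to 1.11 and 2.19 to 63.9 FPKM) were higher in Pdgfra-cre without overlap. The neutrophil genes Csf3r, Cxcr2 and Retnlg overlapped. Pdgfra, the driver of cre, had 178, 186 and 199.9 FPKM in controls and 155, 120.5 and 174 FPKM in Pdgfra-cre.

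Sums for enteric glia (5.63 to 14.97 and 5.38 to 8.88 FPKM), enteric neurons (3.24 to 7.62 and 5.76 to 13.9 FPKM), interstitial cells of Cajal (14.04 to 20.2 and 14.4 to 19.6 FPKM), leukocytes (16.2 to 26.0 and 13.2 to 57.2 FPKM), epithelium (0.812 to 9.26 and 3.33 to 16.4 FPKM) and endothelium (0.873 to 2.36 and 0.968 to 1.96 FPKM) overlapped between genotypes. The neuronal gene Elavl4 and the endothelial gene Cdh5 were listed at 0 in all 6 libraries. The part of these cells in the HOX values was not tested.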

How the data were processed

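RNA from sorted colonic stromal cells of 6 mice, 3 per genotype, was analysed from gene-level FPKM deposited by the authors, 1 table per library. Per the labels' protocols, total RNA was made into full-length cDNA and tagmented libraries without strand information. Per the submitters' processing notes, the tools were TopHat2 2.1.1, Bowtie2 2.2.8, SAMtools 0.1.18 and Cuffdiff 2.2.1, with mm10. The annotation and options are not given in the sources used here, nor are read totals. Reads of overlapping, antisense or closely similar HOX genes may have been divided between them.

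The 39 members were found by symbol. Genes reaching 1 FPKM in 3 or more libraries were tested with limma 3.58.1 in R 4.3.3 on log2(FPKM + 1), with a variance trend and a threshold of 0.05 on the adjusted p. The fit was tested on simulated data. Fragment numbers were estimated roughly from the most frequent low FPKM per kilobase and from GENCODE M21 exon lengths, and cover counting error only. All 39 members matched GENCODE M21. Values after ± are SD unless marked SE. No intervals of counts were computed, since the depth is known only roughly.

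The members and gene lists were chosen with earlier results of these data known. Values per library are given for the most abundant member of each cluster, group 13, members beside a change of state along a cluster or beside the threshold, and the 5 with the lowest p. Of other lists, the most abundant members and some with an unadjusted p under 0.05 are named, with Evx2, Hotair and the Cdx genes chosen after their values were seen. Alternatives were 2 pseudocounts, 2 filters, 2 normalizations, 3 variance or weight settings, other thresholds and leaving out each library. The values of some genes are not reported here. The p-values measure the spread between 3 mice per group.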

Additional observations from a re-analysis of the deposited data

How the results depend on the processing

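No HOX gene passed the adjusted threshold of 0.05 under any of the 15 alternatives of the limma fit, and the lowest adjusted p of a member lay between 0.152 and 0.425. Over all genes the number that passed lay between 0 and 31 when 1 library was left out: 2 without control library 43, 3 without Pdgfra-cre library 13, 31 without Pdgfra-cre library 25, and 0 under the other 12 alternatives. Hoxd8, Hoxd9, Hoxb7, Hoxc10 and Hoxb2 stayed above 0 and Hoxa10, Hoxa9 and Hoxa11 below 0 in every alternative in which they were tested. Leaving out 1 library turned the sign of 4 members with small differences, whose log2 fold changes then ranged from -0.25 to 0.43 for Hoxa5, from -0.49 to 0.0090 for Hoxa7, from -0.34 to 0.31 for Hoxd10 and from -0.25 to 0.28 for Hoxd13. The count of expressed members was 12 whichever library was left out and lay between 9 and 18 over all thresholds. The difference in posterior share between genotypes, -14.3 percentage points, ranged from -16.2 to -13.1 when 1 library was left out. The HOXA sum, 7.21 FPKM lower in Pdgfra-cre on average, differed by -3.14 with control 43 left out and by -3.97 with Pdgfra-cre 13 left out. With a filter of 5 FPKM only Hoxa10, Hoxa11 and Hoxd10 were tested. No paired analysis was possible because the labels name no pairing between mice of the 2 groups. Several members rest on few fragments, so low levels and differences in them were not resolved at this depth.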
